A study of Mus musculus with 14 samples.

Results

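The 39 clustered Hox genes were followed through the conversion of mouse epiblast stem cells (EpiSC) by MM401, a compound that inhibits Mll1 (Kmt2a), which methylates histones. Members were all rows of the count table named Hox, a cluster letter from a to d and a number, and antisense names were left out. This gave 39 of the 24015 gene symbols in the table: 11 Hoxa genes on chromosome 6, 10 Hoxb genes on chromosome 11, 9 Hoxc genes on chromosome 15 and 9 Hoxd genes on chromosome 2. RNA was sequenced from 7 groups of 2 libraries, which the design text calls biological duplicates.

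Embryonic stem cells (ESC) and EpiSC carried the genotype CD1/JF1 and came from blastocysts. ESC were grown with LIF on feeder cells, and EpiSC were grown with bFGF. EpiSC were then moved to LIF medium with 100 µM MM401 for 3 days (day 3) or for 6 days, at passage 2 (P2). Reverted ES lines (rES) were kept in LIF medium with 25 µM MM401 after passage 3 and were sampled at passage 6, at passage 30, and at passage 30 without MM401. The labels give the rES libraries the genotype CD1-deltaTSIX/JF1, whereas all other libraries are CD1/JF1, and the labels do not make clear which EpiSC line the rES lines came from. A difference between rES and EpiSC, ESC or P2 thus cannot be told apart from a difference of genotype or line, and between P2 and rES the MM401 dose differed as well. LIF medium and MM401 were introduced together, and no EpiSC moved to LIF medium alone were analysed here, so their parts cannot be told apart either.

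Hox genes encode homeodomain transcription factors that give cells a position along the body axis. In each cluster the genes lie in the order of their paralogue number: low numbers act towards the head, high numbers towards the tail, and the low numbers are usually switched on first in the embryo. Mll1 and its partners place methyl groups on lysine 4 of histone H3 and are known to maintain Hox transcription, while Polycomb complexes are known to keep the clusters silent in pluripotent cells. For the comparisons below, paralogue groups 1 to 4 were called anterior (12 genes), 5 to 8 central (11 genes) and 9 to 13 posterior (16 genes).

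Total counts per library were between 20831588 and 23677089, except for 113221270 and 116086115 at day 3 and 74952496 and 80383376 at P2. Levels are in CPM (counts scaled to a common library total with TMM factors), and 16247 genes passed the filter on low counts. Of the 39 Hox genes, 37 passed; Hoxa6 and Hoxb1 did not. At the filter level of 0.445 CPM, 24 of the 37 reached it in both libraries of all 7 groups, 10 in 2 to 6 groups, and 3 (Hoxa4, Hoxa13 and Hoxd12) in the P2 group only, so these 3 were tested because of their P2 level. Among the 10, Hoxd1 reached it only in the 3 rES groups. Hoxc11 reached it only at day 3, at P2 and in both passage 30 groups. Hoxc9 and Hoxc12 reached it in every group but EpiSC. These genes thus did not enter the test through EpiSC, against which they are called higher below. Tests were edgeR's quasi-likelihood F test with Benjamini-Hochberg adjustment over all 16247 genes. An adjusted p under 0.05 made a call, and differences are log2 fold changes ± SE. The labels were checked against 6 pluripotency markers, all detected in every library. Zfp42, a naive-state marker, was at 20.2 and 17.9 CPM in EpiSC and at 271 and 272 CPM in ESC. Fgf5, a marker of the primed epiblast, went against that order, with 7.55 and 7.68 CPM in EpiSC and 22.02 and 20.3 CPM in ESC. Kmt2a itself, the target of MM401, was at 140 and 155 CPM in EpiSC, 105 and 101 CPM at day 3 and 128 and 118 CPM at P2.

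Summed over the 39 members, Hox transcripts were rare in every group and highest at P2. The sums were 67.6 and 69.3 CPM in EpiSC, 85.2 and 86.4 CPM in ESC, 110 and 113 CPM at day 3, and 267 and 268 CPM at P2. In the rES lines they were 105 and 110 CPM at passage 6, 78.9 and 76.8 CPM at passage 30, and 83.8 and 76.5 CPM at passage 30 without MM401. The P2 libraries thus stood above all others, and the duplicates of each group lay close together. All 4 clusters took part in the P2 peak. Group means of the summed CPM in EpiSC, day 3, P2 and rES passage 30 were 10.7, 17.1, 47.3 and 9.96 for Hoxa. They were 33.0, 30.2, 81.5 and 15.9 for Hoxb, 13.7, 45.1, 83.3 and 34.8 for Hoxc, and 11.1, 19.1, 55.3 and 17.2 for Hoxd. Hoxb held the largest mean sum in EpiSC, and Hoxc held it in the other 6 groups, although at P2 the libraries of Hoxc (84.3 and 82.3 CPM) and Hoxb (79.3 and 83.6 CPM) overlapped.

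**Figure D1:**
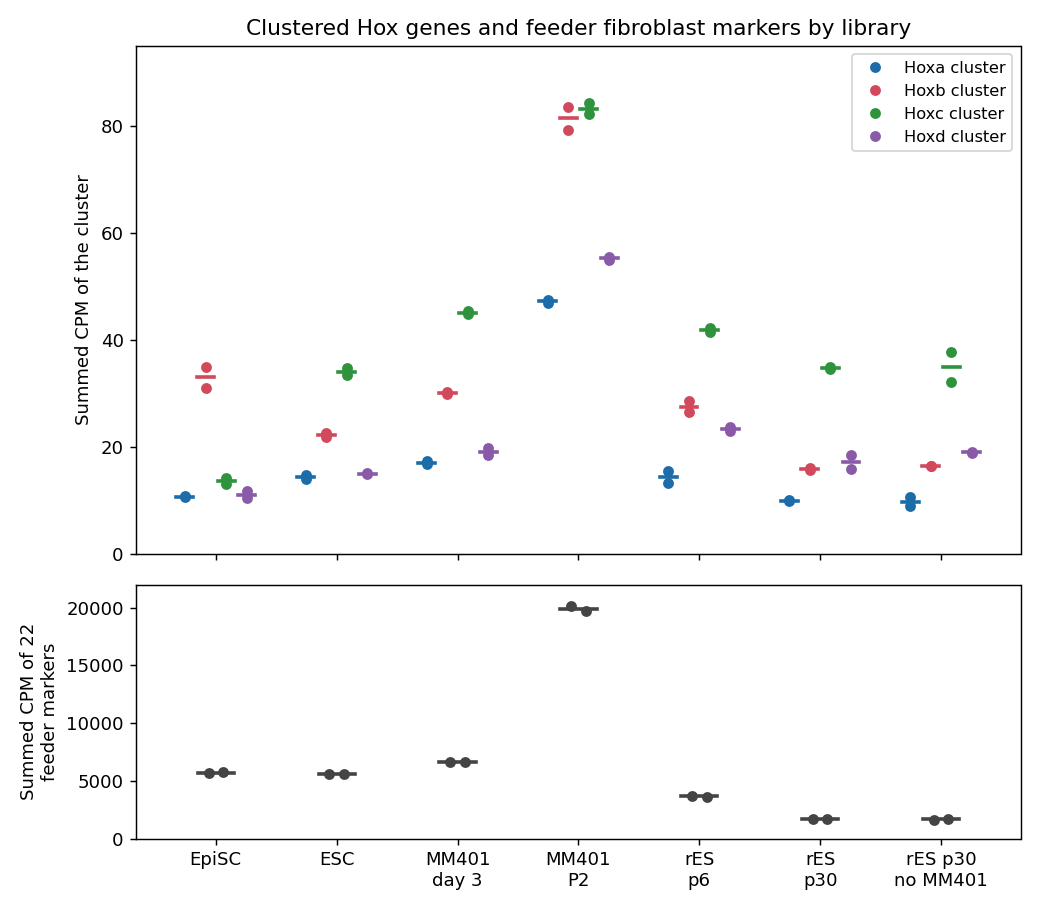
The upper panel plots the summed CPM of each Hox cluster in the 14 libraries (points) with the mean of each group (bars), and the lower panel plots the summed CPM of 22 feeder fibroblast markers. All 4 clusters and the markers peak in the 2 P2 libraries, while in the rES libraries the markers are lowest and the Hoxc sum stays near 34.8 to 41.9 CPM.

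Markers of another cell type were also highest at P2. A list of 22 feeder fibroblast markers (collagens, Lox, Postn, Acta2, Prrx1 and others), none at 0 in any library, summed to 5694 and 5745 CPM in EpiSC and to 5576 and 5561 CPM in ESC. The same list summed to 6614 and 6666 CPM at day 3 and to 20130 and 19690 CPM at P2. In the rES lines it summed to 3687 and 3637 CPM at passage 6, 1738 and 1733 CPM at passage 30, and 1636 and 1714 CPM at passage 30 without MM401. In all 6 rES libraries and in both ESC libraries the marker sum was below EpiSC, by a small amount in ESC, and the Hox sum was above it. Without Hoxc12 and Hoxc13, the mean Hox sum was 67.6 CPM in EpiSC and 66.4 CPM in ESC. In the rES lines it was then 88.1 CPM at passage 6, 56.6 CPM at passage 30 and 60.25 CPM at passage 30 without MM401. Fibroblasts express Hox genes themselves, so the marker values are given beside each Hox comparison below. The part of the feeder cells in the differences of Hox genes, and of the other genes described below, was not tested. In bulk RNA, fewer cells of a type and less RNA per cell cannot be told apart. Summed nascent mesoderm and tailbud markers were between 15.2 and 17.1 CPM at day 3 and P2. In EpiSC and ESC they were between 33.0 and 42.7 CPM. Members differed: of 10 tested, 3 were higher and 5 lower at P2 than in EpiSC (42.1% and 33.8% of all genes). Foxf1 was highest at P2, at 2.94 and 3.36 CPM. From day 3 to P2, 2 of the 10 rose and 4 fell, and of 7 tested neural markers 5 rose and 0 fell (37.5% and 33.3% of all genes). The part of such cells in the Hox differences was not tested.

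ESC and EpiSC, the starting and reference states, differed mainly at the posterior end of the clusters. ESC had 12 of 37 Hox genes higher than EpiSC, where 37.0% of all genes tested were higher, and 3 lower, where 37.5% were lower; both shares were below those of all genes. The median Hox difference was 0.23 on the log2 scale, against 0.00 for all genes. Of the 16 posterior genes 10 rose and 1 fell, of the 10 central genes tested 2 rose, and of the 11 anterior genes tested 2 (Hoxb3 and Hoxb4) fell. The Hoxb4 call (-0.40 ± 0.18, adjusted p = 0.0472, edgeR) was lost with DESeq2 (adjusted p = 0.0874), with no low-count filter (0.0824), with only the libraries compared (0.0562), with the replicate block (0.0517), in thinned libraries (0.0511), without the day 3 and P2 libraries (0.0585) and without each ESC or EpiSC library in turn (0.0718 to 0.198). Scaling to total counts in place of TMM left 7 genes higher, and leaving out EpiSC replicate 1 left 6. Without ESC replicate 1, Hoxb13 was the 1 gene called lower. The feeder markers were not offset in one direction here, with 12 of 22 higher and 9 lower.

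The largest of these differences were at the posterior ends of 2 clusters and opposite in sign. Hoxc13, which regulates keratin genes in hair and nail, was at 0.857 and 0.784 CPM in EpiSC and at 16.2 and 17.1 CPM in ESC. It was higher in ESC by 4.34 ± 0.18 (adjusted p = 2.06e-23, edgeR). Its neighbour Hoxc12 had 4 and 1 counts in EpiSC and 56 and 60 counts in ESC, a difference of 4.69 ± 0.47 (adjusted p = 1.18e-11, edgeR). Hoxb13, a tail-end gene known from the tailbud and the prostate, showed the reverse order. It was at 9.55 and 11.8 CPM in EpiSC and at 0.723 and 0.483 CPM in ESC, a log2 fold change of -4.13 ± 0.31. The 2 groups did not overlap in these genes, but the genes were named for the size of these differences, so this adds no separate support. Per kb of transcript, Hoxb13 was the leading Hox gene of EpiSC (4.84 CPM per kb) and Hoxc13 that of ESC (6.76 CPM per kb). The other 2 members of paralogue group 13 differed little: Hoxd13, which shapes the digits, by 0.48 ± 0.22 (adjusted p = 0.0435, edgeR), and Hoxa13, another limb and genital tract gene, by -0.45 ± 0.81 (adjusted p = 0.624). The Hoxd13 call was lost with DESeq2 (adjusted p = 0.0737), with total counts (0.173) and without replicate 1 of ESC (0.384) or of EpiSC (0.224).

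After 3 days with MM401, 20 of the 37 Hox genes were higher than in EpiSC and 3 were lower. Of all genes tested, 38.7% were higher and 37.9% lower. The median Hox difference was 0.75, against 0.00 for all genes. Hoxc led, with 7 of 9 genes higher and a median of 1.16, while Hoxa had 5 of 10 tested genes higher, Hoxb 4 of 9 and Hoxd 4 of 9. By position, 11 of 16 posterior, 5 of 10 central and 4 of 11 anterior genes rose. The Hoxa9 call (0.64 ± 0.29, adjusted p = 0.044, edgeR) was lost with total counts (0.15), with DESeq2 (0.0835), with only the libraries compared (0.0673) and in thinned libraries (0.0501). The Hoxb7 call (0.54 ± 0.23) was lost with total counts (adjusted p = 0.143, edgeR) and DESeq2 (0.0894). That of Hoxd4 (0.91 ± 0.30) was lost in thinned libraries (0.093). Feeder markers were mixed, with 10 of 22 higher, 7 lower and a median of 0.08. The day 3 and P2 differences share the same 2 EpiSC libraries, so each is given by its own values. Leaving out day 3 replicate 2 raised the number of lower genes from 3 to 5, with Hoxa3 (-0.83) and Hoxb1 added.

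Hoxc13 and Hoxc12 again changed most. Hoxc13 reached 21.3 and 21.7 CPM at day 3, against 0.857 and 0.784 CPM in EpiSC, a rise of 4.70 ± 0.16. Hoxc12 reached 3.00 and 1.99 CPM, against 0.163 and 0.0413 CPM, a rise of 4.56 ± 0.43. Together with Hoxc11 (rise of 2.36 ± 0.59; 86 and 80 counts against 3 and 4), the 3 genes at the posterior end of Hoxc were thus low in EpiSC and raised by day 3. Of the 3, only Hoxc13 reached the filter level in EpiSC. Hoxc11 and Hoxc12 were tested because of their levels in other groups, day 3 among them. Hoxc13 alone held 1.27% and 1.13% of all Hox CPM in EpiSC and 19.3% and 19.2% at day 3. Without Hoxc12 and Hoxc13, the mean Hox sum was 67.6 CPM in EpiSC, 66.4 CPM in ESC and 87.6 CPM at day 3.

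Hoxb13 moved the other way. It fell from 9.55 and 11.8 CPM in EpiSC to 0.375 and 0.576 CPM at day 3 (log2 fold change -4.48 ± 0.25, adjusted p = 2.95e-19, edgeR). Its share of the Hox CPM was 14.1% and 17% in EpiSC and 0.340% and 0.510% at day 3. The day 3 levels of Hoxc13 and Hoxb13 therefore lay on the ESC side of EpiSC. The feeder marker sum was 6614 and 6666 CPM at day 3 and 5694 and 5745 CPM in EpiSC. The part of the feeder cells in both differences was not tested.

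At the anterior end, Hoxa2 and Hoxb3 fell at day 3. Hoxa2, which patterns the hindbrain and the second pharyngeal arch, was at 0.284 and 0.186 CPM at day 3 and 0.938 and 1.12 CPM in EpiSC, a log2 fold change of -2.12 ± 0.39. Both day 3 libraries were below both EpiSC libraries, but the gene was named for this fall. Hoxb3, a hindbrain and pharyngeal gene, was at 4.08 and 4.48 CPM against 5.71 and 5.78 CPM, a log2 fold change of -0.42 ± 0.13. That call was lost when all libraries were thinned to the shallowest total (-0.31, adjusted p = 0.083, edgeR). Exons of Hoxa2 and Hoxb3 are among those of 12 members that overlap exons of another annotated gene, and whether counting used strand is not stated in the labels, so reads of such a pair may be shared.

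Hoxb1, which specifies a hindbrain segment, did not pass the filter and is described by its counts. It had 3 and 14 counts in EpiSC, 2 and 2 in ESC, and 0 in both day 3 libraries, in both P2 libraries and in both rES passage 6 libraries. With a floor of 3 counts over each group, it was at least 25.8-fold lower at day 3 and at least 17.8-fold lower at P2 than in EpiSC, for counting error only, and most of its EpiSC counts came from 1 library. Its promoter is shown because the gene was read at 0 in the deepest libraries. The window runs from 250 bases before to 50 bases after the start, taken from RefSeq on GRCm38.p6, at chr11:96365508-96365807 on the plus strand. Capitals mark its 10 CpG sites, and it holds 1 match to TGATNNAT, a motif known from joint Pbx and Hox sites.
Hoxb1: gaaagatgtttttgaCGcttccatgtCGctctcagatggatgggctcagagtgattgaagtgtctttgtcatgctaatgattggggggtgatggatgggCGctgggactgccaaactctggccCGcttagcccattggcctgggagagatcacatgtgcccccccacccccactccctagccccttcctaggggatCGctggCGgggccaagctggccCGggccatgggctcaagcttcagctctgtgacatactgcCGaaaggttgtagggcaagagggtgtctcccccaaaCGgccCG
Such windows were given for 22 of the 39 genes (24 windows). They had a median of 14.5 CpG sites (4 to 45), against 13 over 20284 windows of 16775 genes, and 70.8% of them had 10 or more, against 57.6%. TGATNNAT, searched on both strands, was in 4 of the 24 Hox windows (16.7%) and in 7.17% of all windows. A match is a description of the letters and not of a bound site.

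**Figure D2:**
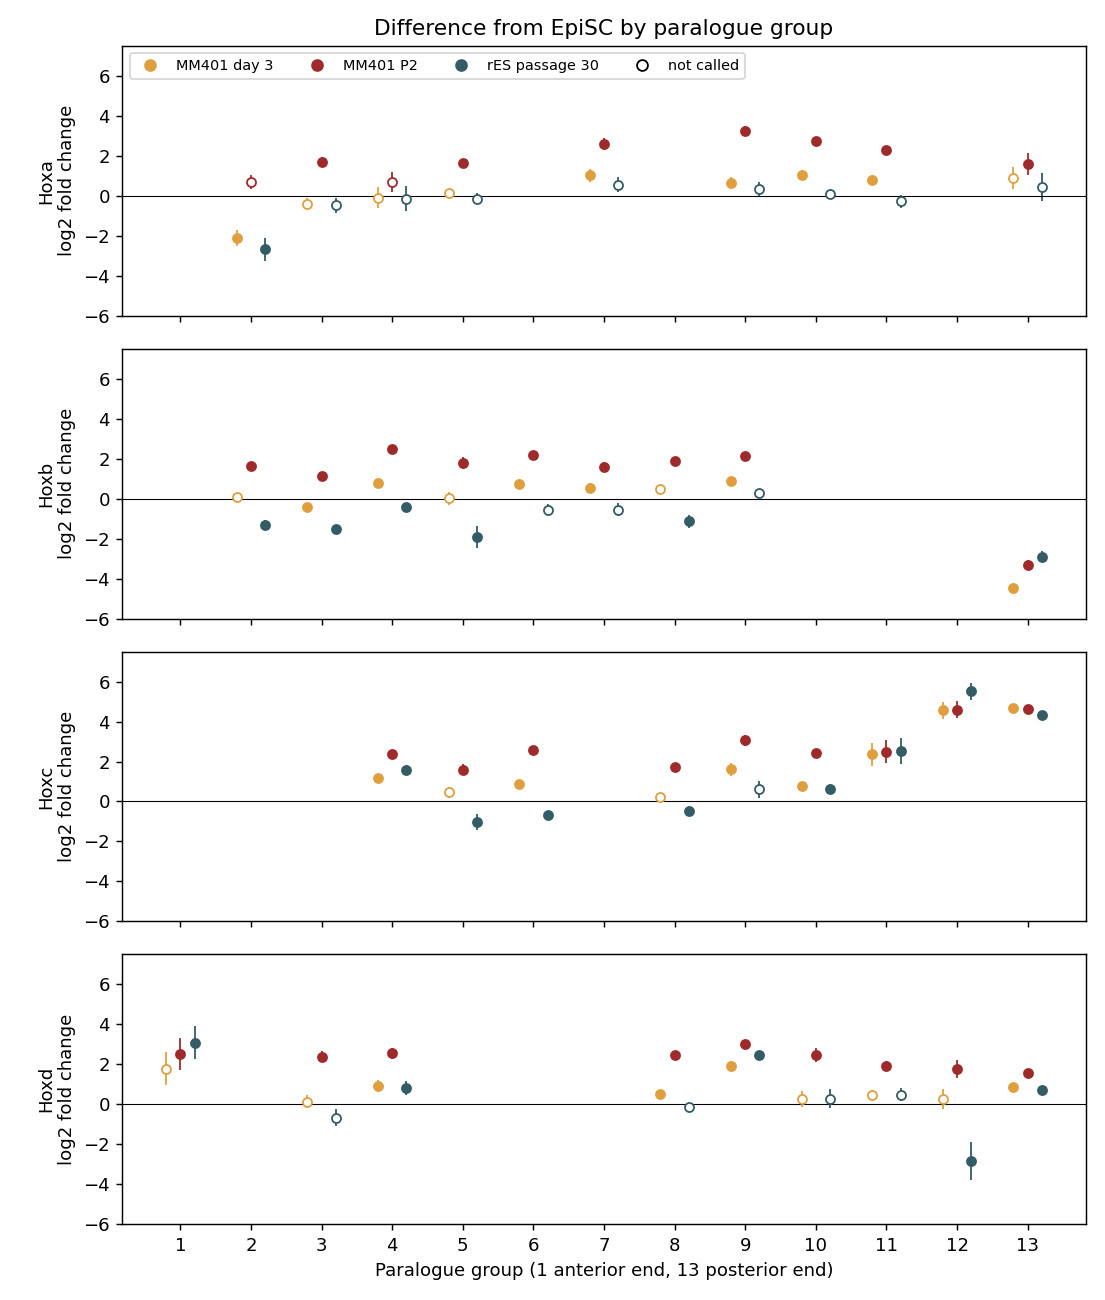
Log2 fold changes from EpiSC (± SE) are plotted against paralogue group, from 1 at the anterior end to 13 at the posterior end, for the tested members shown of each cluster at day 3, at P2 and in rES passage 30; filled points were called and open points were not. Nearly all members lie above 0 at P2. Hoxc12 and Hoxc13 show the largest rises, and Hoxb13 shows the largest fall, in all 3 comparisons.

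By P2, after 6 days, the rise covered all 4 clusters. Of the 37 genes tested, 34 were higher than in EpiSC and 1 was lower, while 42.1% of all genes were higher and 33.8% lower. The 34 include Hoxa13 and Hoxd12, which entered the test through P2 alone; of the other 34 genes tested, 32 were higher. All 34 rises were at least 2-fold. The median Hox difference was 2.18, against 0.08 for all genes. All 9 Hoxc and all 9 Hoxd genes rose, 8 of 9 tested Hoxb genes rose and Hoxb13 fell, and 8 of 10 tested Hoxa genes rose. The exceptions were Hoxa2 (0.70 ± 0.34, not called; called at 0.64 with only the libraries compared, adjusted p = 0.0399, edgeR) and Hoxa4 (0.67 ± 0.50, not called). Without P2 replicate 1, Hoxd1 and Hoxa13 were no longer called (adjusted p = 0.0662 and 0.148, edgeR). Hoxd1 was also lost without EpiSC replicate 2 (0.067) and Hoxa13 without EpiSC replicate 1 (0.0918). The median difference was 1.68 in anterior, 1.83 in central and 2.45 in posterior genes. All 22 feeder markers were also higher than in EpiSC, with a median of 1.64, from 0.08 at day 3; their part in the Hox rise was not tested.

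After Hoxc13 and Hoxc12, the largest rises from EpiSC to P2 were those of the posterior genes Hoxa9, Hoxc9, Hoxd9 and Hoxa10. Hoxa9, a gene known as an Mll1 target in blood cells, was at 10.1 and 8.27 CPM, against 0.898 and 1.03 CPM in EpiSC and 1.15 and 1.85 CPM at day 3. Its rise from EpiSC was 3.24 ± 0.25 (adjusted p = 2.19e-14, edgeR). Hoxc9, a thoracic patterning gene, was at 3.85 and 4.38 CPM against 0.326 and 0.661 CPM, a rise of 3.06 ± 0.29. Hoxd9, which acts in the limb and lumbar spine, was at 7.33 and 7.23 CPM against 1.06 and 0.743 CPM, a rise of 3.01 ± 0.20. These genes were named for the size of their rises, so the lack of overlap between their P2 and EpiSC libraries adds no separate support. Hoxa10, a uterus and lumbar spine gene and the leading Hoxa member per kb, was at 13.4 and 13.3 CPM against 1.80 and 2.15 CPM, a rise of 2.76 ± 0.16. Per kb, the order of members also changed: Hoxc6 led at P2 (14.2 CPM per kb), before Hoxd8 (9.51), Hoxb9 (8.66) and Hoxc13 (8.39), whereas Hoxc13 led at day 3 (8.72).

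Hoxc6, a thoracic gene, was at 22.8 and 22.04 CPM at P2, 6.71 and 7.09 CPM at day 3, and 3.71 and 3.84 CPM in EpiSC. Its rise from EpiSC to P2 was 2.57 ± 0.12. Hoxb4, a gene of the neck level that also promotes blood stem cell growth, was at 18.4 and 18.1 CPM, against 5.74 and 5.55 CPM at day 3 and 3.26 and 3.22 CPM in EpiSC. Both genes therefore stepped up at each time, and the P2 step was the larger. Hoxb9, a rib patterning gene and the leading Hoxb member per kb, was at 21.3 and 23.3 CPM, against 9.79 and 9.54 CPM and 5.22 and 5.12 CPM, a rise from EpiSC of 2.11 ± 0.11.

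The neighbours Hoxd8 and Hoxd9 both rose by day 3 and again by P2, by different amounts. At day 3 Hoxd9 was 1.93 ± 0.22 above EpiSC and Hoxd8 0.54 ± 0.13, and from day 3 to P2 Hoxd8 rose by 1.94 ± 0.09 and Hoxd9 by 1.08 ± 0.13; the difference between the genes was not tested. Hoxd8, a gene of the trunk, was at 25.1 and 25.0 CPM at P2 and 4.86 and 4.17 CPM in EpiSC, a rise of 2.47 ± 0.12. In the rES lines at passage 30 it was back at 4.74 and 3.36 CPM, where it did not pass the test against EpiSC (-0.15 ± 0.17, adjusted p = 0.431, edgeR). Hoxd9 stayed at 5.72 and 4.19 CPM there, 2.46 ± 0.23 above EpiSC. Their promoter windows are shown because the pair sits side by side in the genome, with the same construction of 250 bases before and 50 after the RefSeq start on GRCm38.p6. Hoxd8 is at chr2:74704365-74704664 and Hoxd9 at chr2:74697513-74697812, both on the plus strand, and capitals mark CpG sites.
Hoxd8: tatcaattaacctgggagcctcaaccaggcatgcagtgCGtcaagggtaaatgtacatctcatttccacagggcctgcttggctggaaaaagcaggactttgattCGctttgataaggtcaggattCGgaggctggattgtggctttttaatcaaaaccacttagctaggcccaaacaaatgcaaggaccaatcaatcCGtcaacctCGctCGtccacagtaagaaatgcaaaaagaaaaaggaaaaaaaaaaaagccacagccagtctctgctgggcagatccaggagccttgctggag
Hoxd9: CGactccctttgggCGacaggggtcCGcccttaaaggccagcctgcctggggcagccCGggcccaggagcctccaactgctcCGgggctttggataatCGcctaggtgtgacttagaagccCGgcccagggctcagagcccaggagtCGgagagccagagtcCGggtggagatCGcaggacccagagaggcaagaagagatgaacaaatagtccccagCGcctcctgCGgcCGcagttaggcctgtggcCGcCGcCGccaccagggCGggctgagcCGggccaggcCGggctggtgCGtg
The Hoxd8 window holds 6 CpG sites, at percentile 31.2 of all windows, and the Hoxd9 window holds 20, at percentile 63.3. Neither window held TGATNNAT. Hoxc13 and Hoxb13 had no entry in the promoter table.

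**Figure D3:**
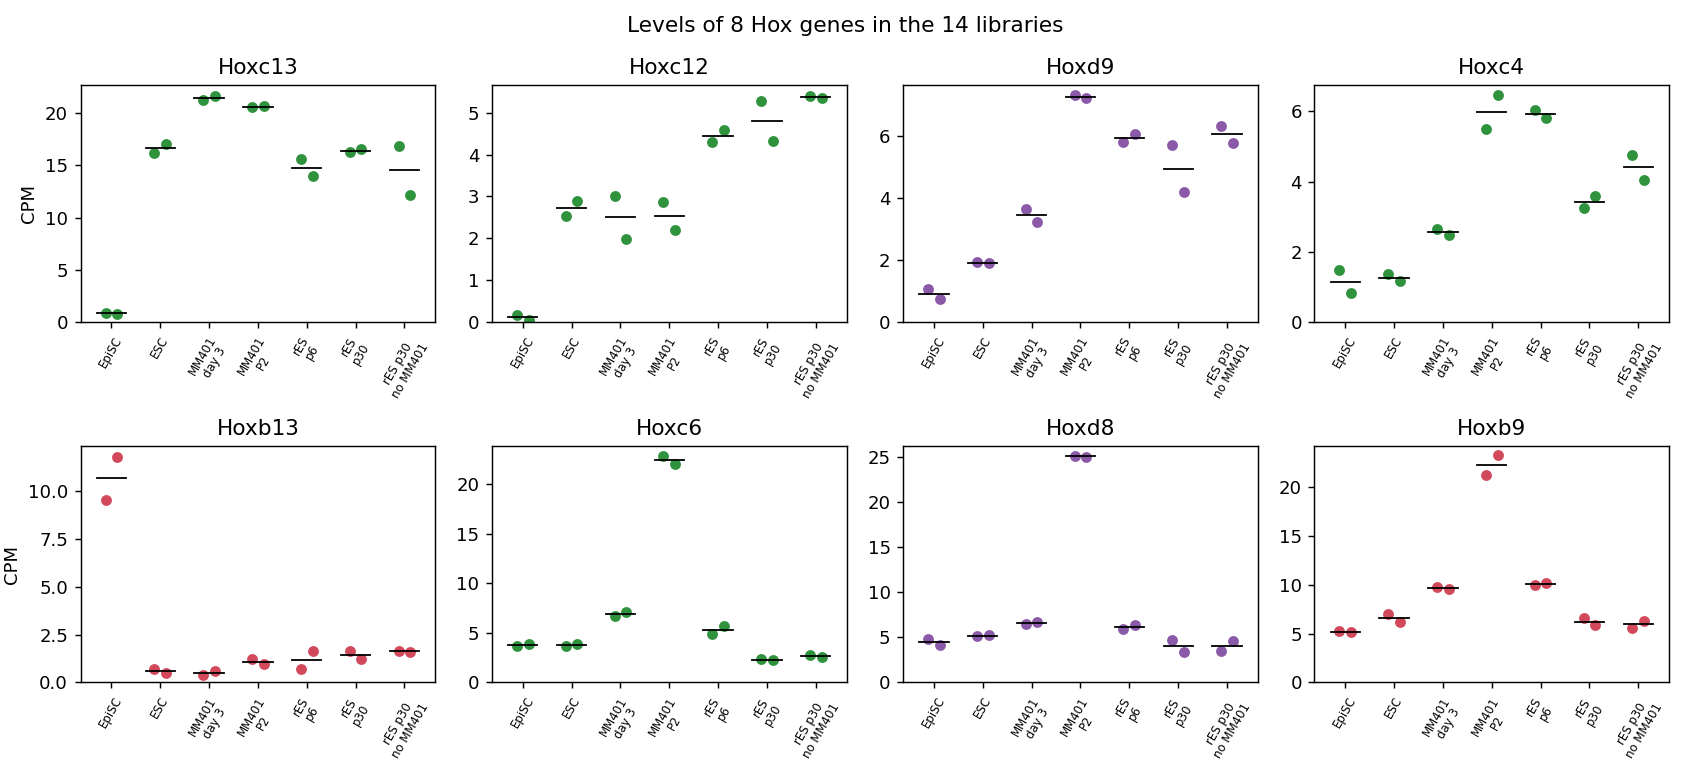
Each panel plots the CPM of 1 Hox gene in the 14 libraries (points) with group means (bars). Hoxc13 is low only in the 2 EpiSC libraries and Hoxb13 is high only there, while Hoxc6 and Hoxd8 peak in the 2 P2 libraries.

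Between day 3 and P2, 30 of 37 Hox genes rose, 29 of them at least 2-fold, and 1 fell. Both the 30 and the 29 include Hoxd12, which entered the test through P2 alone. Hoxa4 and Hoxa13 entered it in the same way and were not called. Of all genes 37.5% rose and 33.3% fell. The median Hox change was 1.49, against 0.04 for all genes. All 9 tested Hoxb genes rose, as did all 10 tested central genes, 8 of 11 anterior and 12 of 16 posterior genes. The genes not called were the 3 at the posterior end of Hoxc, along with Hoxa4 (0.77 ± 0.39), Hoxa13 (0.69 ± 0.38) and Hoxd1 (0.70 ± 0.43). Hoxc13 was at 20.6 and 20.7 CPM at P2 and 21.3 and 21.7 CPM at day 3, a difference of -0.06 with an interval of -0.22 to 0.10 (adjusted p = 0.539, edgeR). Hoxc12 differed by 0.02 (-0.34 to 0.38) and Hoxc11 by 0.14 (-0.55 to 0.83). For these 3 genes the day 3 and P2 libraries were thus side by side or overlapped, whereas the other 6 Hoxc genes rose by 1.15 to 1.70. Over the same step all 22 feeder markers rose, with a median of 1.55, and their part in the Hox changes was not tested.

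Hoxa2 and Hoxa3 rose within this step. Hoxa2 was at 1.66 and 1.69 CPM at P2 and 0.284 and 0.186 CPM at day 3, a rise of 2.82 ± 0.33, the largest of any member. Hoxa3, needed for thymus and parathyroid, was at 3.84 and 3.94 CPM against 0.677 and 1.16 CPM, a rise of 2.08 ± 0.22. Hoxd3 and Hoxd10, the latter a gene of hindlimb motor neurons, rose by 2.25 ± 0.22 and 2.19 ± 0.26. Hoxb13 rose from 0.375 and 0.576 CPM to 1.22 and 0.953 CPM, by 1.18 ± 0.27, still far below EpiSC. That call was lost in libraries thinned to the shallowest total (0.83, adjusted p = 0.0948, edgeR). Exons of Hoxd3 and Hoxd10 overlap those of other annotated genes, as above.

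Between P2 and the rES lines at passage 6, 29 of 37 Hox genes were lower at passage 6 and 1 was higher, while 37.5% of all genes were lower and 35.5% higher. Genotype and MM401 dose differed between these groups too. The 29 include Hoxa4 (-1.27 ± 0.56) and Hoxd12 (-1.47 ± 0.44), which entered the test through P2 alone. The Hoxa4 call was lost with DESeq2 (adjusted p = 0.101). Without P2 replicate 1, Hoxa4 differed by -1.13 and Hoxd12 by -1.08. The median Hox difference was -1.47, against -0.01 for all genes. All 10 central genes tested were lower, with 8 of 11 anterior and 11 of 16 posterior genes. All 22 feeder markers were lower as well, with a median of -2.18. At passage 6 Hoxa9 was at 1.63 and 1.95 CPM (-2.35 ± 0.23 from P2), Hoxd3 at 0.719 and 0.823 CPM (-2.16 ± 0.28), and Hoxb5 at 0.527 and 0.650 CPM (-2.19 ± 0.34). Hoxa2 was at 0.287 and 0.260 CPM (-2.60 ± 0.44), close to its day 3 level.

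A few members were not called lower at passage 6. Hoxc4, a gene of the neck vertebrae, was at 5.50 and 6.47 CPM at P2 and 6.04 and 5.80 CPM at passage 6, a difference of -0.02 ± 0.16 (adjusted p = 0.928, edgeR). Hoxd9 was at 5.80 and 6.06 CPM after 7.33 and 7.23 CPM (-0.29 ± 0.15, adjusted p = 0.0689, edgeR). Both passage 6 libraries of Hoxd9 lay below both P2 libraries, and it was called lower with no low-count filter (-0.32, adjusted p = 0.0444) and with only the libraries compared (-0.29, adjusted p = 0.0499). Hoxc12 was the 1 higher gene, at 4.31 and 4.59 CPM against 2.88 and 2.20 CPM (0.81 ± 0.20, adjusted p = 0.000465, edgeR). Hoxd1, an anterior gene of low counts, did not pass (1.01 ± 0.47, adjusted p = 0.0533). With the replicate number as a block, Hoxd1 passed (1.04, adjusted p = 0.0469, edgeR), and without P2 replicate 1 it passed as well (1.68, adjusted p = 0.00953). Hoxc13 was lower by a small amount, at 15.6 and 13.99 CPM (-0.48 ± 0.10).

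**Figure D4:**
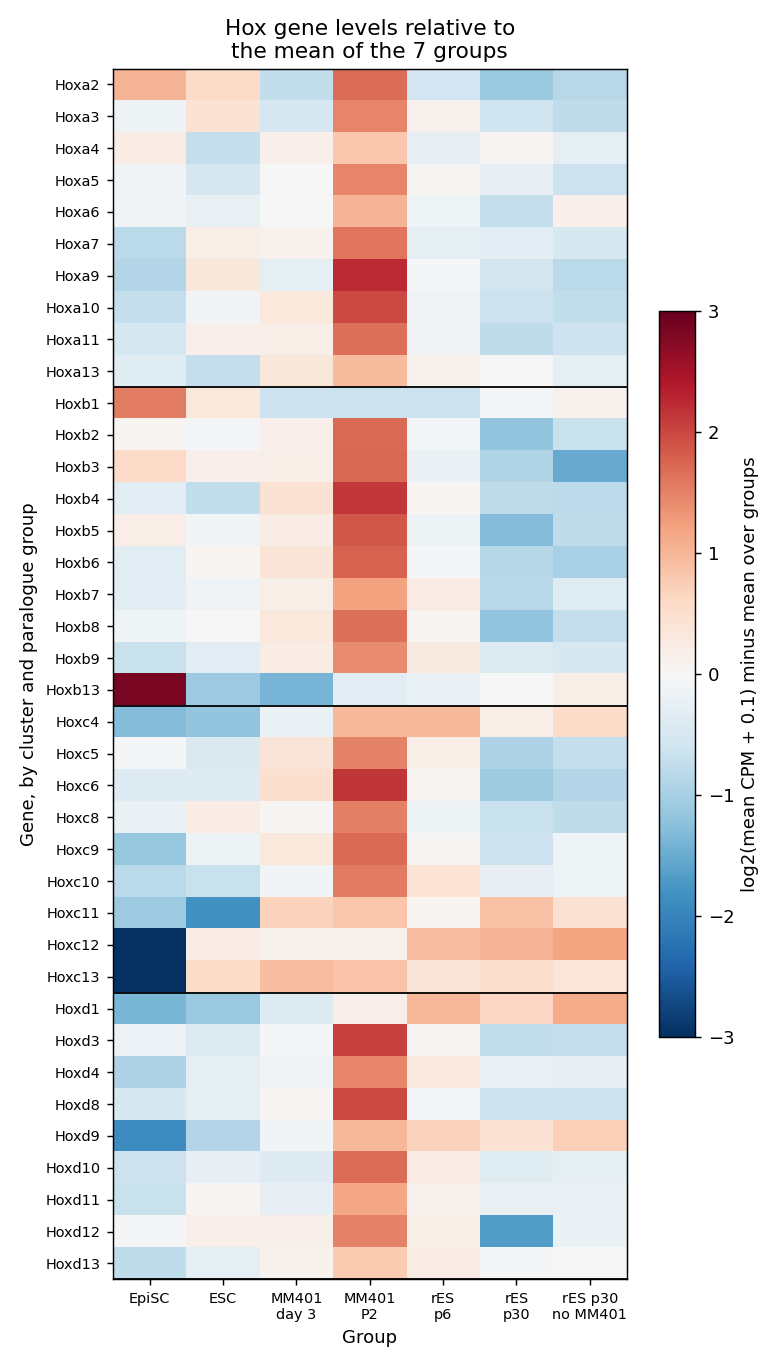
Colours show log2(mean CPM + 0.1) of each Hox gene shown in each group minus its mean over the 7 groups, with genes ordered by cluster and paralogue group and colours limited at 3 in either direction. The P2 column holds the highest value in most rows, but not in those of Hoxb1, Hoxb13, Hoxc11, Hoxc12, Hoxc13 and Hoxd1.

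In the rES lines at passage 30, the Hox genes were no longer raised as a whole. Against EpiSC, 9 of 37 were higher and 11 lower, with 38.0% of all genes higher and 38.3% lower, and the median Hox difference was -0.15, against -0.02 for all genes. The clusters differed in their counts. Hoxc had 5 of 9 genes higher and 3 lower, and Hoxd 4 of 9 higher and 1 lower. Hoxb had none of 9 higher and 6 lower, and Hoxa none of 10 higher and 1 lower. By position, 6 posterior genes rose and 2 fell, no central gene rose and 5 fell, and 3 anterior genes rose and 4 fell. Of the higher genes, Hoxc10 and Hoxd4 lost their calls without passage 30 replicate 1 (adjusted p = 0.187 and 0.395, edgeR) and Hoxd13 without passage 30 replicate 2 (0.122). Of the feeder markers, 20 of 22 were lower, with a median of -1.80; no marker was higher.

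The higher members were led by the same end of Hoxc. Hoxc13 was at 16.3 and 16.6 CPM (4.32 ± 0.18 above EpiSC) and Hoxc12 at 5.29 and 4.33 CPM (5.52 ± 0.42). Hoxc11 had 11 and 26 counts against 3 and 4 in EpiSC (2.54 ± 0.65), a call that was lost without passage 30 replicate 2 (1.69, adjusted p = 0.0632, edgeR). The feeder marker sum of the passage 30 libraries, 1738 and 1733 CPM, was below that of EpiSC. The part of the feeder cells in these differences was not tested. Hoxc4 was at 3.24 and 3.60 CPM against 1.47 and 0.826 CPM, a rise of 1.57 ± 0.25. Hoxd1 had 14 and 10 counts against 2 and 1, a ratio of 8.86 with a counting interval of 2.69 to 46. Hoxd1 reached the filter level only in the rES groups, so it was tested because of its level there. Hoxc11 and Hoxc12 did not reach it in EpiSC either. Hoxb13 stayed low, at 1.62 and 1.22 CPM (-2.90 ± 0.27).

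The 11 falls were 6 Hoxb genes (Hoxb2, Hoxb3, Hoxb4, Hoxb5, Hoxb8 and Hoxb13), 3 central Hoxc genes (Hoxc5, Hoxc6 and Hoxc8), Hoxa2 and Hoxd12. The Hoxb4 call (-0.43 ± 0.18, adjusted p = 0.0345, edgeR) was lost with DESeq2 (0.062), with no low-count filter (0.0539), with only the libraries compared (0.0608), in thinned libraries (0.0514) and without each of the libraries compared in turn (0.0505 to 0.158). Without passage 30 replicate 1, Hoxc5 and Hoxc8 were not called either (adjusted p = 0.363 and 0.127), nor was Hoxb5 without EpiSC replicate 2 (0.0696) or Hoxc5 and Hoxc8 without EpiSC replicate 1 (0.293 and 0.0592). Hoxb3 was at 1.83 and 2.14 CPM against 5.71 and 5.78 CPM in EpiSC (-1.54 ± 0.18). Hoxb2, a hindbrain gene, was at 1.15 and 1.07 CPM against 2.57 and 3.10 CPM (-1.34 ± 0.25). Hoxa2 was at 0.171 and 0.146 CPM against 0.938 and 1.12 CPM (-2.67 ± 0.57). The groups did not overlap in these 3 genes, but the genes were named for the size of their falls, so this adds no separate support. Hoxd12, a digit gene, had 1 and 1 counts in rES passage 30 and 8 and 9 in EpiSC, a ratio of 7.67 with a counting interval of 1.82 to 68.5. Reads of Hoxb2, Hoxb3 and Hoxa2 may be shared with overlapping genes, as above.

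Against ESC, the other reference, rES passage 30 had 6 of 37 Hox genes higher and 14 lower, with 35.3% and 35.8% for all genes and a median Hox difference of -0.34. This comparison and the one with EpiSC share the 2 rES libraries. Against both references, 8 genes were lower and 5 higher. The largest falls from ESC at 1 CPM or more were those of Hoxb8 (-1.31 ± 0.33), Hoxb2 (-1.22 ± 0.26), Hoxa3 (-1.09 ± 0.34) and Hoxb3 (-1.09 ± 0.19). The 6 higher than ESC were Hoxb13, Hoxc4, Hoxc11, Hoxc12, Hoxd1 and Hoxd9. Of these, Hoxc11 and Hoxd1 did not reach the filter level in ESC and were tested because of their levels in other groups. Hoxd9 was at 5.72 and 4.19 CPM in rES passage 30 and 1.94 and 1.89 CPM in ESC (1.38 ± 0.21, adjusted p = 1.92e-07, edgeR). Hoxc4 was at 3.24 and 3.60 CPM against 1.36 and 1.16 CPM (1.44 ± 0.25). Hoxc11 had 11 and 26 counts against 0 and 2, a ratio of 18.0 with a counting interval of 4.64 to 154. Hoxc13 did not pass the test against ESC (-0.02 ± 0.11, adjusted p = 0.881, edgeR). Hoxb13 was at 1.62 and 1.22 CPM against 0.723 and 0.483 CPM, a difference of 1.23 ± 0.40. That call was lost without ESC replicate 2 (0.98, adjusted p = 0.0735, edgeR) and without passage 30 replicate 1 (0.99, adjusted p = 0.0821). Of the feeder markers, 21 of 22 were lower than in ESC and 1 was higher.

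From passage 6 to passage 30, 15 of 37 Hox genes fell and 0 rose, while 14.4% of all genes fell and 11.3% rose. DESeq2 called 12 lower and 0 higher, and at an unadjusted p under 0.05 the edgeR test also gave 0 higher. The median Hox change was -0.67, against -0.01 for all genes. The falls took in 7 of 9 tested Hoxb genes, 5 of 9 Hoxc, 2 of 9 Hoxd and 1 of 10 Hoxa, and 7 of 10 central against 3 of 16 posterior genes. Hoxb9 went from 9.96 and 10.2 CPM to 6.57 and 5.84 CPM (-0.70 ± 0.13), and Hoxc6 from 4.84 and 5.67 CPM to 2.39 and 2.24 CPM (-1.18 ± 0.17). Hoxc13 and Hoxc12 did not pass the test (0.15 ± 0.11 and 0.12 ± 0.21, adjusted p = 0.325 and 0.752). All 22 feeder markers fell over the same passages. The count of falling genes was 9 without passage 6 replicate 2 and 9 without passage 30 replicate 1. Leaving out the latter also made Hoxc11 a call (1.55, adjusted p = 0.05).

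Removing MM401 from the passage 30 lines gave no called Hox difference. Of 37 genes, 0 were higher and 0 lower by edgeR, and likewise by DESeq2, where 10.4% of all genes were higher and 9.30% lower by edgeR. At an unadjusted p under 0.05, 1 Hox gene was higher (Hoxd12) and 1 lower (Hoxb3, -0.64 ± 0.25), named after their values were seen. The median Hox difference was 0.05. Hoxc13 was at 16.9 and 12.1 CPM without MM401 and 16.3 and 16.6 CPM with it (-0.17, interval -0.39 to 0.05). Without the library at 16.9 CPM it was called lower (-0.43, adjusted p = 0.0102, edgeR). Hoxd9 was at 6.33 and 5.78 CPM against 5.72 and 4.19 CPM (0.28, interval -0.06 to 0.63), and Hoxc6 differed by 0.20 (-0.20 to 0.60). Hoxd12 had 7 and 6 counts against 1 and 1, a ratio of 6.74 with a counting interval of 1.53 to 61.5 (adjusted p = 0.0521, edgeR). It passed with no low-count filter, in thinned libraries and without the day 3 and P2 libraries (adjusted p = 0.0418, 0.0435 and 0.035). Feeder markers were mixed, with 5 of 22 higher and 10 lower.

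The genes that work with Hox proteins, or regulate the clusters, changed in both directions. TALE homeodomain cofactors (Pbx, Meis and Pknox genes) bind DNA together with Hox proteins. At P2, 3 of 9 were higher than EpiSC and 5 lower, beside 42.1% and 33.8% of all genes. From day 3 to P2, 5 of the 9 rose and 3 fell (37.5% and 33.3% of all genes), and at passage 6, 1 was higher and 6 lower than at P2 (35.5% and 37.5%). Meis1 was at 19.5 and 18.4 CPM at P2, 6.00 and 6.40 CPM at day 3 and 6.81 and 6.28 CPM in EpiSC, a rise from EpiSC of 1.53 ± 0.12. Meis2 rose by 1.12 ± 0.11, to 15.7 and 14.1 CPM. All 22 feeder markers were higher at P2 than in EpiSC too, and their part in these rises was not tested.

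Among the Cdx, Evx and Gsx genes, homeobox relatives of which Cdx genes are known to activate Hox clusters, Cdx1 peaked away from P2. It was at 0.408 and 0.289 CPM in EpiSC, 4.79 and 4.54 CPM in ESC, 4.69 and 5.11 CPM at day 3, and 0.787 and 1.08 CPM at P2 (P2 against day 3, -2.38 ± 0.17). Evx1, which lies beyond the posterior end of Hoxa, was at 8.002 and 8.07 CPM in ESC, 2.82 and 2.95 CPM at day 3 and 0.963 and 1.27 CPM at P2. Both thus fell from day 3 to P2, whereas Gsx2 went from 3.53 and 2.83 CPM to 5.33 and 5.31 CPM. Over that step 1 of 6 tested genes of the list rose and 2 fell, beside 37.5% and 33.3% of all genes. In this list 3 of 6 tested genes were higher than EpiSC at day 3 and none lower, and 3 were higher and 1 lower at P2, beside 38.7% higher and 37.9% lower of all genes at day 3 and 42.1% and 33.8% at P2.

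The same shares of all genes hold for the lists that follow. Of the Mll1 complex, 6 of 10 tested genes were higher and 4 lower than EpiSC at day 3, and likewise at P2. Kmt2a was lower by a small amount at both times (-0.52 ± 0.04 and -0.27 ± 0.04), and Wdr5, the partner whose binding MM401 blocks, was higher (1.45 ± 0.03 and 0.82 ± 0.03). Of 16 Polycomb genes, 13 were higher and 1 lower than EpiSC at day 3, and 11 were higher and 4 lower at P2. From day 3 to P2, 10 Polycomb genes fell and 5 rose, beside 33.3% and 37.5% of all genes. Ezh2, the histone H3 lysine 27 methyltransferase, was at 293 and 289 CPM at day 3 and 154 and 153 CPM at P2 (-0.92 ± 0.04). In rES passage 30, 13 of the 16 were higher than EpiSC and 1 lower, beside 38.0% and 38.3%. Of 17 retinoic acid pathway genes, which act upstream of Hox genes in the embryo, 7 were higher and 3 lower than EpiSC at P2, and 3 were higher and 8 lower at day 3. From day 3 to P2, 9 rose and 2 fell, and at passage 6, 5 were higher and 10 lower than at P2. Their summed CPM was highest at P2, at 872 and 892, against 759 and 765 in EpiSC, 730 and 743 at day 3 and 585 and 562 at passage 6. Aldh1a1, which makes retinoic acid, was at 13.2 and 14.2 CPM at P2 against 1.59 and 1.20 CPM in EpiSC (3.29 ± 0.18). Cyp26b1, which breaks it down, was at 65.8 and 60.03 CPM against 16.1 and 16.8 CPM (1.93 ± 0.08). The part of the feeder cells in these rises was not tested.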

How the data were processed

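RNA-seq counts per gene were deposited by the authors as whole-number counts in 1 table; per the submitters' processing notes the tools were TopHat2, Subread and DESeq with the mm9 genome, without versions or roles. Columns of 14 libraries were matched to their titles, and 2 further columns of per-sample values were not used. Per the labels' protocols, libraries were single-end TruSeq, and whether they mark strand is not stated. Of the gene names, 27 read as dates and were kept as they stood. Counts were fitted with edgeR 4.0.16 (R 4.3.3): TMM scaling, filterByExpr, 1 mean per group over 7 groups of 2 libraries, robust quasi-likelihood F tests, Benjamini-Hochberg adjustment over 16247 genes and calls at adjusted p under 0.05. Groups came from the labels. CPM use TMM-scaled totals; values per kb use the longest GENCODE M21 transcript; intervals for ratios of few counts are exact Poisson, where a group at 0 is set to a floor of 3 counts; they cover counting error only. Libraries held 20831588 to 116086115 counts, which sets the precision of the Hox genes, many under 5 CPM. With 2 libraries a group, p-values measure the spread between these duplicates.

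Named genes followed a rule: any member may be named, with full statistics for the up to 4 largest rises and falls per comparison at 1 CPM or more, paralogue groups 1 and 13, and the leading member of each cluster per kb; other members named beside them illustrate a group. From each list, up to 4 called genes by smallest adjusted p were eligible; Kmt2a, Meis2, Zfp42, Fgf5, Cdx1, Evx1 and others shown for their role were chosen after their values were seen. Some genes that enter the counts are not reported here by name. The members and lists were chosen with earlier results of these data known. The script was tested on simulated data. Alternatives were RLE or total-count scaling, no filter, DESeq2 1.42.0, only the libraries compared, the replicate block, thinning to 20831588 counts, leaving out each library, and, chosen after seeing the data, a fit without the day 3 and P2 libraries.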

Additional observations from a re-analysis of the deposited data

Results flagged for a closer look

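Of the Hox genes called between day 3 and P2, 3 had differences from EpiSC of opposite sign at those times, which that test compares directly. Hoxa4 also changed sign (-0.10 ± 0.52 at day 3, 0.67 ± 0.50 at P2), but was not called between the times (0.77 ± 0.39). Hoxa2 differed from EpiSC by -2.12 ± 0.39 at day 3 and by 0.70 ± 0.34 (not called) at P2, and the difference between the times was 2.82. Hoxa3 differed by -0.39 ± 0.29 (not called) and 1.68 ± 0.26, with 2.08 between the times. Hoxb3 differed by -0.42 ± 0.13 and 1.15 ± 0.13, with 1.57 between the times. All 3 differences between times were past the threshold in edgeR's quasi-likelihood test. Feeder markers rose over the same step in 22 of 22 genes, and their part was not tested. No group held 4 or more libraries, so single libraries were not screened for gaps.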

How the results depend on the processing

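The numbers of Hox genes called higher and called lower in each comparison were each set beside their values under the alternatives. Of these pairs of counts, 189 stayed within 1.5 times of the reported value, and 19 moved further or went from or to 0. Scaling to total counts left 7 higher genes in ESC against EpiSC (12 reported); it moved the median of all genes in comparisons with EpiSC to between -0.17 and -0.07. With no low-count filter, 2 genes were lower at P2 than in EpiSC, since Hoxb1 then entered. Rises from P2 to passage 6 numbered 2 with total counts, 2 with the replicate block and 2 in thinned libraries, each time by Hoxd1. Without MM401, 1 gene (Hoxd12) was higher with no filter, 1 in thinned libraries and 1 without the day 3 and P2 libraries.

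Replicate numbers did not pair the libraries: over 21 pairs of groups, same-numbered libraries had deviations that correlated by -0.03 to 0.04. With the replicate block, Hoxb4 lost its call in ESC against EpiSC (adjusted p = 0.0517, edgeR), and Hoxd1 gained one (1.04, adjusted p = 0.0469).

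Leaving out each library in turn leaves 1 sample in a group, assumed to vary like the others. Higher and lower genes then ranged from 6 to 9 and 1 to 3 in ESC against EpiSC, 16 to 22 and 3 to 5 at day 3, and 33 to 34 and 1 to 2 at P2. From day 3 to P2 they were 30 to 33 and 1 to 1, from P2 to passage 6 1 to 2 and 27 to 30, and from passage 6 to 30 0 to 1 and 9 to 12. For rES passage 30 they were 7 to 8 and 8 to 11 against EpiSC and 5 to 6 and 10 to 15 against ESC, and without MM401 0 to 0 and 0 to 1. Signs turned for uncalled genes. Hoxa13 ranged from -2.50 to 0.33 (ESC, EpiSC), -0.53 to 0.18 (passage 6 to 30) and -1 to 0.10 (MM401 removed). Hoxb13 ranged from -0.59 to 0.60 (P2 to passage 6) and -0.20 to 0.99 (passage 6 to 30). Hoxc13 ranged from -0.43 to 0.04 (MM401 removed) and -0.06 to 0.02 (passage 30, ESC), and Hoxd13 from -0.20 to 0.34 and -0.05 to 0.48. The cause of each change was not tested.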

Other observations

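Non-coding transcripts of the clusters were read in the same libraries. Hotair, which lies between Hoxc11 and Hoxc12, was at 0 and 0.0413 CPM in EpiSC and 0 and 0.0483 CPM in ESC. It was at 0.192 and 0.372 CPM at day 3, 0.461 and 0.113 CPM at P2, 0.383 and 0.476 CPM at passage 6, and 0.427 and 0.389 CPM at passage 30. Day 3 held 63 counts against 1 in EpiSC, a ratio of 13.8 with a counting interval of 2.39 to 554. Passage 30 held 18 counts against 1 in ESC, a ratio of 17.5 (2.77 to 730). Without MM401 it was at 0.139 and 0.0964 CPM. Hoxa11os, which overlaps Hoxa11 on the opposite strand, was at 3.42 and 3.85 CPM at P2 against 0.326 and 0.619 CPM in EpiSC (2.94 ± 0.31). Reads of Hoxa11os and Hoxa11 (2.27 ± 0.22 at P2) may be shared.

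Gsx2, a homeobox relative outside the clusters, was at 0.326 and 0.0826 CPM in EpiSC, 5.33 and 5.31 CPM at P2, 16.5 and 14.8 CPM at passage 6 and 20.3 and 19.4 CPM at passage 30, 6.58 ± 0.26 above EpiSC. It was chosen after its values were seen.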
